A study of Homo sapiens with 60 samples.

Results

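The genes described here make cholesterol and fatty acids, or control that synthesis. They were chosen by symbol, with earlier results of these data known. Each of the 34 symbols was found among the 60675 genes of the count table. All 34 also passed the filter on low counts, which left 16835 genes to test, though ELOVL5 and FADS2 were near 0. Messenger RNA was sequenced from HT29, an established line of human colorectal adenocarcinoma cells, in 60 libraries made after 24 h with a herbal extract or with DMSO, the vehicle. There were 8 preparations with 3 doses each. Yijin-tang and Soshiho-tang are decoctions of several herbs, used as water extracts, with 3 and 2 libraries per dose. Schisandrae Fructus, Liriopis seu Ophiopogonis Tuber, Zizyphi Semen and Longan Arillus are single herbs, used as ethanol extracts, with 3 libraries per dose. These 6 were given at 20, 100 and 500 µg/mL, called the low, medium and high dose. Polygalae Radix and Aucklandiae Radix, also ethanol extracts, had 1 library per dose and therefore no test. Their doses were 15.2, 76 and 380 µg/mL for the first and 14.8, 74 and 370 µg/mL for the second. The vehicle had 3 libraries, and its DMSO content is 0.1% in the sample labels but 2% in the series description, with none stated for the extract libraries. Nothing says that replicates came from separate cultures, so p-values measure only the spread between these libraries.

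Cells make cholesterol from acetyl groups by way of mevalonate, isoprenoid units, squalene and a chain of sterol intermediates. Fatty acids are built from the same acetyl-CoA and are then lengthened and desaturated. Both routes are controlled by the sterol regulatory element binding proteins (SREBPs), which INSIG proteins hold in the endoplasmic reticulum while sterols are plentiful, and which are cut and sent to the nucleus when sterols fall. SREBP2 acts mostly on cholesterol genes and SREBP1 mostly on fatty acid genes.

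Library totals ran from 18161673 to 35128923 counts. Levels are given as CPM, the usual scaling of a gene's counts to the size of its library, here with TMM factors. Of 10 HT29 markers, general epithelial genes such as KRT8 and intestinal genes such as CDX2, 9 were above 1 CPM in the vehicle. A library set here means the libraries whose names begin alike, and the labels do not say what that part of the name stands for and give all libraries the same batch. The vehicle names begin differently from those of every extract, so extract and library set cannot be told apart in comparisons with it, whereas high against low dose, and the 2 extracts of a set, lie within one set. In bulk RNA, fewer cells of a type and less RNA per cell cannot be told apart. In replicate 2 of the low dose of Yijin-tang, FASN, fatty acid synthase, had 309 CPM, against 982.5 and 1046 CPM in the other libraries of that dose, and EBP, a sterol isomerase, had 177 CPM, against 72.1 and 70.5 CPM. That library was left out of the model, which held 53 libraries in 19 groups. This choice was made after seeing the data, and the 2 genes are among those tested. Counts with the library in the model are given below, and many of them differ from the reported ones. Replicate 3 of the high dose of Soshiho-tang had a sum of 3 red cell markers of 9.66 CPM, against 0.187 CPM in replicate 2. Elsewhere this sum was at most 0.311 CPM, with Yijin-tang low dose replicate 2 not counted. The sum of 7 leukocyte markers in replicate 3 was 22.7 CPM, against 8.39 CPM in replicate 2 and 9.17 to 11.3 CPM in the vehicle. Replicate 3 was kept, and counts without it are given.

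Promoters are shown for SREBF2, which encodes SREBP2 and holds the sterol regulatory element core, and for INSIG1, DHCR7 and SC5D. These 3 are among the genes with the smallest p below, but are not the first 3. SQLE, with a smaller p than each, had no promoter sequence here. CYP51A1, with a smaller p than SC5D, is not shown. Each line gives 250 bases before a start site annotated by RefSeq in GRCh38.p14, 5′ to 3′ on the strand of the gene. Capitals mark the core TCACNCCAC, the NF-Y box CCAAT in either orientation, and the E-box CACGTG.
SREBF2: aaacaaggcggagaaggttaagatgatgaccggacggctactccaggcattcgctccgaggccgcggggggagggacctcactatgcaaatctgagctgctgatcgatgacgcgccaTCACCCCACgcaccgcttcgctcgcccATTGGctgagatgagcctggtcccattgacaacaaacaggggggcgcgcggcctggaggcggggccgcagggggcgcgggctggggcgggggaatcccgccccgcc
INSIG1: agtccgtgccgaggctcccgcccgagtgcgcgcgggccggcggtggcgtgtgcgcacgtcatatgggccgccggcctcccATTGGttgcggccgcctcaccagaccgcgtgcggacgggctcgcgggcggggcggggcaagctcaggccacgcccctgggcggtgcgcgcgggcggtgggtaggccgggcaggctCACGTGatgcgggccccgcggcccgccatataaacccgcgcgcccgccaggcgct
DHCR7: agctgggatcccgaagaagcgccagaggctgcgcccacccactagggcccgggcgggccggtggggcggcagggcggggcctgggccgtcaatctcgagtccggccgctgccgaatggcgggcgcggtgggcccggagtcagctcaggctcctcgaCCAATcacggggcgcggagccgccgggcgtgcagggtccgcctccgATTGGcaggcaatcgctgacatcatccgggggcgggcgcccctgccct
SC5D: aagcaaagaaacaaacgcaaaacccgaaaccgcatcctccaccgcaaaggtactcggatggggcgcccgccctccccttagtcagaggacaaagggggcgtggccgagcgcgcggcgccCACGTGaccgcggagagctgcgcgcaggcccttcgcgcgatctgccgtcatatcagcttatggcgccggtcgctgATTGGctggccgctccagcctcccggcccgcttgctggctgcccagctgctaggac
They lie at chr22:41832855-41833104 (plus strand), chr7:155297628-155297877 (plus strand), chr11:71448394-71448643 (minus strand) and chr11:121292521-121292770 (plus strand). Windows from 250 bases before to 50 bases after the start were searched on both strands, and 30 of the 34 genes had one. The core was found in 1 of the 30, SREBF2, against 1.39% of all genes with a window. Of the 18 genes with a window that rose with Soshiho-tang against its low dose below, 0 held the core. The NF-Y box was found in 24 of 30, against 42.8% of tested genes, and the Sp1 box GGGCGG in 27 of 30, against 74.6%. Neighbouring Sp1 boxes can overlap each other, as a pair does in INSIG1. The E-box was found in ELOVL5, INSIG1, LSS and SC5D, 4 of 30, against 12.3%. CYP51A1 had a window with the Sp1 box, but with none of the core, the NF-Y box and the E-box. These matches describe letters in a window and carry no test.

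In vehicle cells, SCD, stearoyl-CoA desaturase, had the highest level per length, 230 CPM per kilobase of exon. SQLE, squalene epoxidase, had 160 CPM per kilobase, FASN 97.8, DHCR7, 7-dehydrocholesterol reductase, 84.2 and ACLY, ATP citrate lyase, 70.5. At the low end ACSS2, acetyl-CoA synthetase, had 2.95, HSD17B7, a sterol ketoreductase, 2.54 and the desaturase gene FADS1 0.502. FADS2 (0.0594) and ELOVL5 (0.0476) were near 0. ELOVL5 had no count in 42 of 60 libraries and at most 0.538 CPM. Its highest levels were 0.538 CPM in replicate 3 of the high dose of Soshiho-tang and 0.51 CPM in vehicle replicate 1, libraries in which VIM, a filament gene of mesenchymal cells, had 4.43 and 2.85 CPM. Over all libraries VIM overlapped, with as little as 0.343 CPM in a library with over 0.1 CPM of ELOVL5 and as much as 0.449 CPM in one without ELOVL5, and the part of such transcripts in the result was not tested. VIM was chosen after its values were seen. Mean levels below leave out ELOVL5 and FADS2, a choice made after seeing the data.

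At its high dose Soshiho-tang had higher levels of most cholesterol genes. Against its low dose, 21 of the 34 genes rose and 0 fell, where 9.36% of all tested genes rose, 7.23% fell and 16.6% did either (edgeR quasi-likelihood test, Benjamini-Hochberg adjusted p under 0.05). The median log2 fold change was 0.227 over the 34 and 0.00309 over all tested genes. Against the vehicle 23 rose and 0 fell, where 9.99% of all tested genes rose and 8.17% fell, and the median was 0.259. Both comparisons share the high dose libraries, and 20 genes were called in both. FDFT1 was called against the low dose only, and ACSS2, LBR and LSS against the vehicle only.

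**Figure D1:**
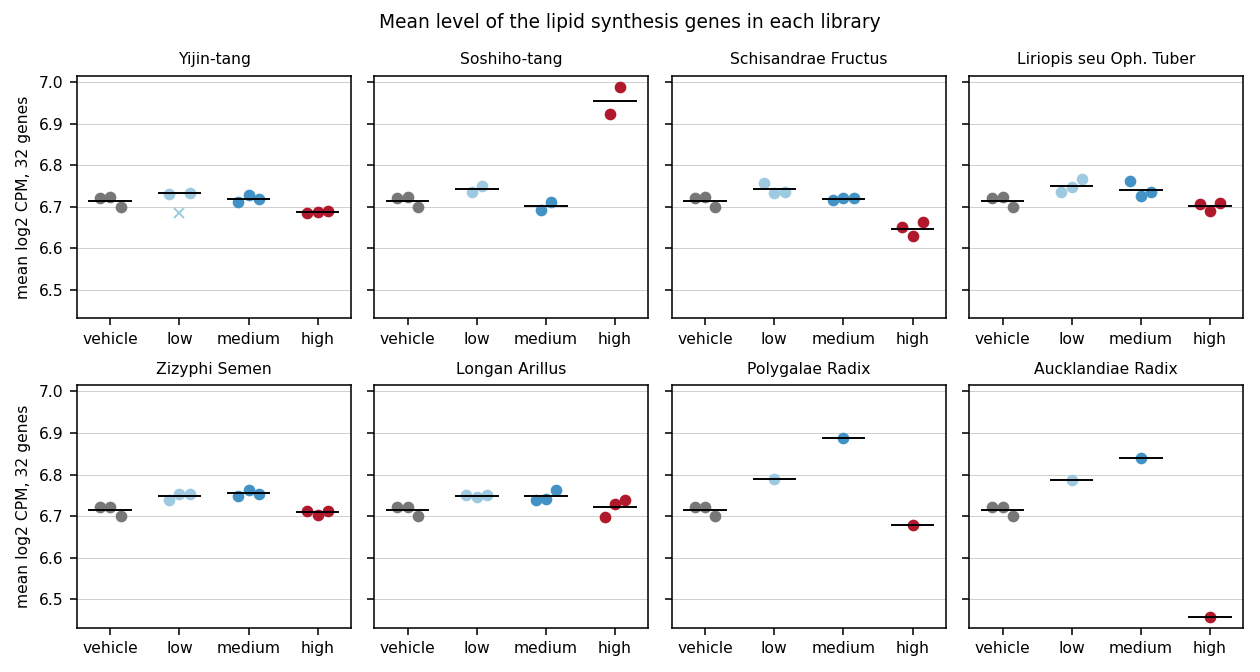
Mean log2 CPM of 32 of the 34 genes (without ELOVL5 and FADS2), 1 point per library, for the vehicle and the low, medium and high dose of each extract, with black lines at group means. The Soshiho-tang high dose libraries stand at 6.922 and 6.988, and the Aucklandiae Radix high dose library at 6.458. The cross is the Yijin-tang low dose library left out of the model.

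The mean log2 CPM of the 32 genes was 6.955 ± 0.047 at the high dose of Soshiho-tang (SD, n = 2), against 6.742 ± 0.011 at its low dose (n = 2) and 6.715 ± 0.014 in the vehicle (n = 3). The medium dose, at 6.702 ± 0.013 (n = 2), lay with the low dose and the vehicle. Both high dose libraries were above the 4 libraries of the lower doses for 24 of the 34 genes, where 15.5% of all tested genes were. They were above all 15 libraries of the lower doses, of Yijin-tang and of the vehicle for 23 of the 34, where 6.62% were. These 15 do not include Yijin-tang low dose replicate 2, the library left out of the model. It was above both high dose libraries for some of the 23 genes, with EBP at 177 CPM, against 81.7 and 90 CPM. For others it was below both, with SQLE at 613 CPM, against 912 and 1004 CPM.

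Early steps of the mevalonate route rose in 4 of 5 genes against the low dose. HMGCS1, which makes HMG-CoA, rose by 0.25 ± 0.05 on the log2 scale (standard error), the kinase MVK by 0.30 ± 0.06, the decarboxylase MVD by 0.19 ± 0.05 and the thiolase ACAT2 by 0.19 ± 0.06. PMVK, the other kinase, was at 0.14 ± 0.14, with 17.1 and 25.05 CPM at the high dose, against 18 and 20.9 CPM at the low dose. IDI1 and FDPS, which make the isoprenoid units and farnesyl diphosphate, rose by 0.27 ± 0.06 and 0.21 ± 0.05.

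The sterol branch, from squalene to cholesterol, rose in 9 of 12 genes, with a median log2 fold change of 0.303. SQLE, its first oxidation step (ENSG00000104549), had 912 and 1004 CPM at the high dose, against 659 and 653 CPM at the medium dose, 659 and 633 CPM at the low dose and 673, 702 and 688.5 CPM in the vehicle. Both high dose libraries stood above all of these, and SQLE was 1.48-fold higher than at the low dose (log2 0.57 ± 0.04, adjusted p = 1.02e-14). DHCR7 (ENSG00000172893, chr11:71428193-71452868, minus strand), which makes the last reduction, had 455 and 479 CPM at the high dose, against 356 and 343 CPM at the low dose and 361, 332 and 358.5 CPM in the vehicle, without overlap (log2 0.42 ± 0.06, adjusted p = 1.78e-07).

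Lanosterol demethylase, CYP51A1 (ENSG00000001630, chr7:92112151-92134803, minus strand), had 193.5 and 222 CPM at the high dose, against 153 and 155 CPM at the low dose and 155, 168 and 155 CPM in the vehicle (log2 0.43 ± 0.06, adjusted p = 1.02e-06). The sterol desaturase gene SC5D (ENSG00000109929, chr11:121292453-121308694, plus strand) had 106 and 112 CPM, against 84.1 and 84.7 CPM at the low dose and 79.7, 95.6 and 88.6 CPM in the vehicle (log2 0.37 ± 0.06, adjusted p = 6.07e-06). In both genes the high dose libraries were above all low dose and vehicle libraries. The other sterol genes that rose against the low dose were FDFT1, MSMO1, NSDHL, HSD17B7 and EBP. LSS, TM7SF2 and LBR were not called there, at 0.12 ± 0.05, -0.03 ± 0.07 and 0.14 ± 0.07. Against the vehicle LSS and LBR were called higher, and FDFT1 was not called.

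Among 5 regulators and carriers 3 rose. INSIG1, ENSG00000186480, chr7:155297776-155310235, plus strand, had 147 and 169 CPM at the high dose, against 124 and 113.5 CPM at the low dose and 118, 128 and 125 CPM in the vehicle (log2 0.41 ± 0.05, adjusted p = 8.68e-08). STARD4, a cholesterol carrier, had 57.8 and 60.4 CPM, against 39.0 and 43.95 CPM at the low dose and 36.0, 42.4 and 37.0 CPM in the vehicle (log2 0.51 ± 0.09, adjusted p = 1.84e-05). The high dose libraries of both genes lay above these low dose and vehicle libraries. TMEM97, the sigma-2 receptor, rose by 0.22 ± 0.05. The genes of the SREBPs themselves were not called, with SREBF2 at 0.02 ± 0.05 and SREBF1 at -0.15 ± 0.08.

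**Figure D2:**
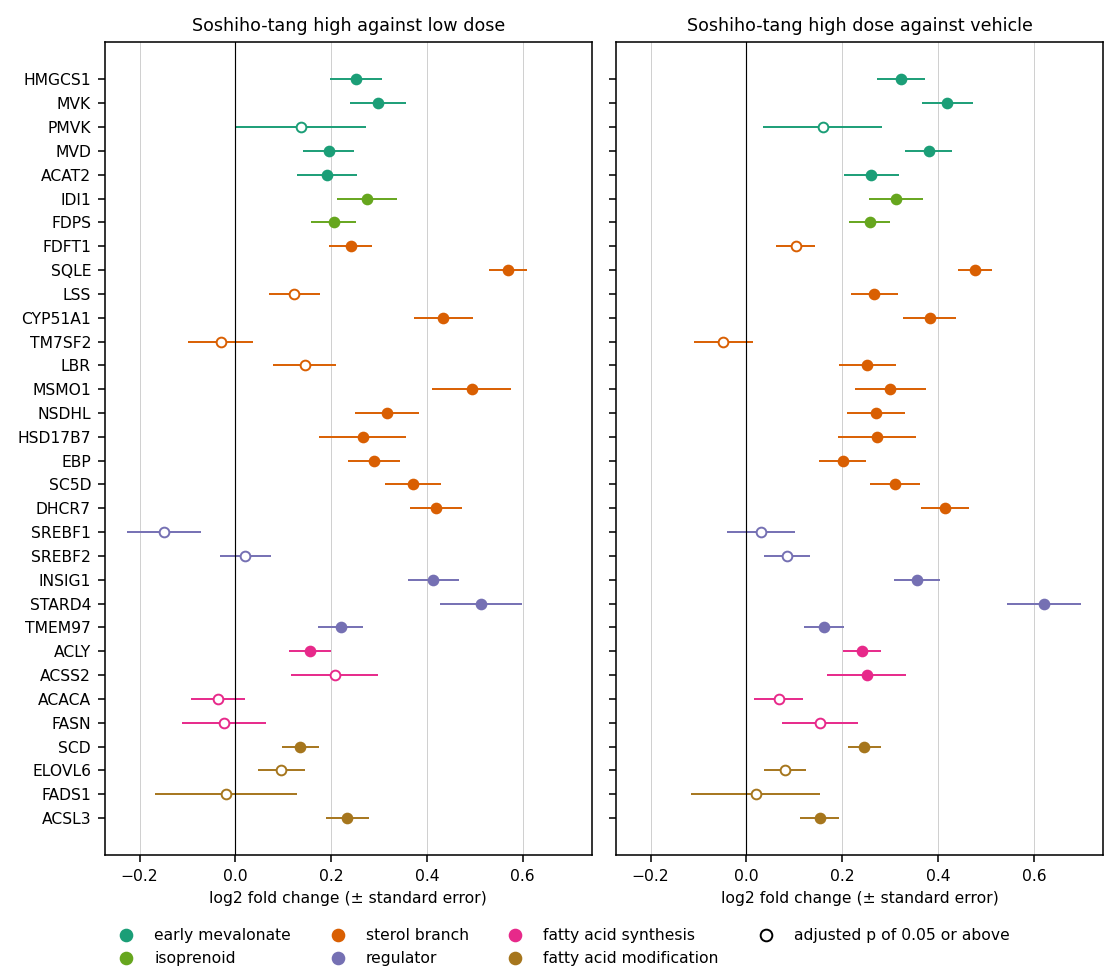
Log2 fold change and standard error of 32 genes for Soshiho-tang high dose against its low dose and against the vehicle, coloured by step of the pathway, with filled symbols for an adjusted p under 0.05. Most cholesterol genes lie right of 0, with SQLE at 0.57 ± 0.04 against the low dose and FASN at -0.02 ± 0.09.

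Of the 4 fatty acid synthesis genes 1 rose against the low dose, ACLY, by 0.16 ± 0.04 (adjusted p = 0.0103). Against the vehicle ACLY and ACSS2 were called higher. FASN had 1161 and 878 CPM at the high dose, against 992 and 1083 CPM at the low dose and 1025, 849 and 873 CPM in the vehicle, and ACACA, acetyl-CoA carboxylase, had 542 and 473 CPM, against 527 and 515 CPM at the low dose. In both genes one high dose library was above and the other below the low dose libraries. Of 6 genes that modify or activate fatty acids 2 rose, SCD by 0.14 ± 0.04 and ACSL3, an acyl-CoA synthetase, by 0.23 ± 0.04. ELOVL6, an elongase, was at 0.10 ± 0.05 and FADS1 at -0.02 ± 0.15.

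The increase was 0.50 on the log2 scale for SQLE in replicate 2 and 0.64 in replicate 3, which held the red cell and leukocyte transcripts, whose part in the result was not tested. Leaving out replicate 3, 15 genes were called against the low dose and 16 against the vehicle, with the spread of the single library that is left taken from other groups. Fitted on the compared groups alone, 2 genes were called against the low dose, SQLE and STARD4, and 5 against the vehicle. With Yijin-tang low dose replicate 2 in the model the counts were 12 and 13.

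At the medium dose of Soshiho-tang 0 of 34 genes were called against the vehicle by edgeR, where 0.909% of all tested genes were, 9 had an unadjusted p under 0.05 and DESeq2 called 1. At the low dose 1 was called, MVD (log2 0.19 ± 0.05), where 1.27% were. MVD was also called higher than the vehicle at the low doses of Schisandrae Fructus (1 gene of 34, where 3.56% were called), Liriopis seu Ophiopogonis Tuber (2 of 34, 5.38%) and Longan Arillus (1 of 34, 3.64%), and these comparisons share the vehicle libraries. Without vehicle replicate 1 the counts were 8, 8, 11 and 2 for the extracts in the order named, and without vehicle replicate 3 or any 1 low dose library of its own the count was 0 for Soshiho-tang and for Schisandrae Fructus. For Longan Arillus the count was 0 without low dose replicate 1 and 2 to 3 without low dose replicate 2 or 3 or vehicle replicate 2, and for Liriopis seu Ophiopogonis Tuber it was 1 without vehicle replicate 3 or low dose replicate 2 or 3 and 4 without low dose replicate 1. Yijin-tang (1.53%) and Zizyphi Semen (0.891%) at the low dose had 0 of 34 called by edgeR, with 7 and 7 at an unadjusted p under 0.05 and 2 and 1 called by DESeq2.

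Yijin-tang shared a library set with Soshiho-tang, and at the high dose 23 of the 34 genes were lower with Yijin-tang and 0 higher, where 6.4% of all tested genes were lower and 4.8% higher. SQLE had 674, 667 and 653 CPM with Yijin-tang, against 912 and 1004 CPM with Soshiho-tang (log2 -0.53 ± 0.04, adjusted p = 8.28e-15). INSIG1 had 112, 115 and 111 CPM, against 147 and 169 CPM (log2 -0.49 ± 0.05, adjusted p = 2.24e-10). Neither gene overlapped between the extracts, but both were named for their small p. The log2 fold change was -0.41 ± 0.05 for DHCR7, -0.40 ± 0.05 for MVD, -0.40 ± 0.05 for MVK and -0.54 ± 0.08 for MSMO1, a sterol methyl oxidase. The change between low and high dose also differed between the extracts, with 15 of 34 genes lower in Yijin-tang and 0 higher, where 1.6% and 1.19% of all tested genes were. Fitted on the compared groups alone, the counts were 12 at the high dose and 1 for the change between doses, and with Yijin-tang low dose replicate 2 in the model they were 15 and 16.

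**Figure D3:**
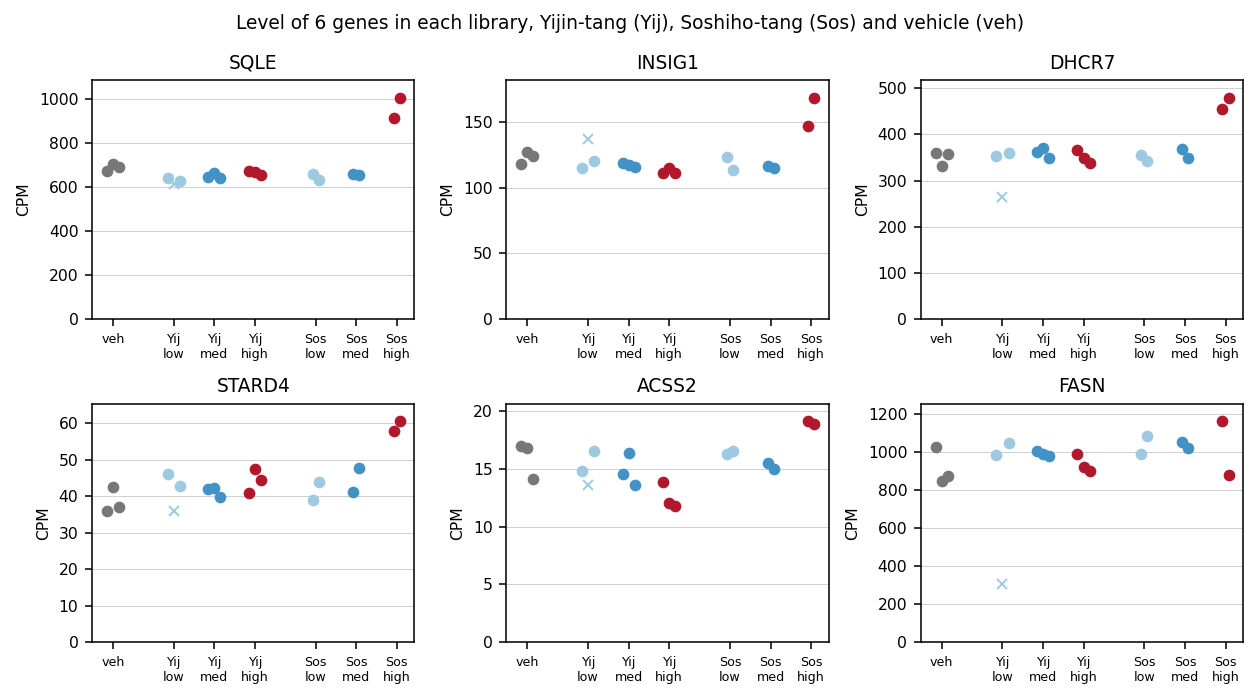
CPM of SQLE, INSIG1, DHCR7, STARD4, ACSS2 and FASN in each library of the vehicle, Yijin-tang and Soshiho-tang at low, medium and high dose, 1 point per library, with a cross for the Yijin-tang library left out of the model. For SQLE the Soshiho-tang high dose libraries stand at 912 and 1004 CPM and the Yijin-tang high dose libraries at 674, 667 and 653 CPM.

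Within Yijin-tang 1 gene changed between high and low dose, where 0.475% of all tested genes did. TM7SF2, a sterol reductase, had 30.3, 29.1 and 28.4 CPM at the high dose, against 33.6 and 36.5 CPM at the low dose (log2 -0.26 ± 0.06, adjusted p = 0.0479), and the call was lost without any 1 of these 5 libraries. With low dose replicate 2 included, 14 genes were called. Against the vehicle at the high dose 2 genes were higher, LBR and ELOVL6, and 5 lower, FDFT1, TM7SF2, MSMO1, EBP and ACSS2, where 3.7% and 2.86% of all tested genes were. The count against the vehicle at the high dose was 2 without vehicle replicate 3 and 3 without Yijin-tang high dose replicate 2. At the medium dose 2 were called, where 3.5% were, and 4 without vehicle replicate 1, 0 without vehicle replicate 3, 0 without Yijin-tang medium dose replicate 1, 1 without Yijin-tang medium dose replicate 2 and 1 without Yijin-tang medium dose replicate 3. These vehicle names were chosen after their values were seen, as are those below.

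Schisandrae Fructus had 3 of 34 genes lower and 0 higher in the high dose against the low dose, where 0.22% of all tested genes fell and 0.285% rose. ACSS2, which makes acetyl-CoA from acetate, had 11, 12.6 and 12.4 CPM at the high dose, against 18.3, 15.45 and 15.9 CPM at the low dose (log2 -0.46 ± 0.08, adjusted p = 0.000437). LSS, lanosterol synthase, had 89.2, 88.35 and 94.5 CPM, against 109, 103 and 106 CPM (log2 -0.23 ± 0.04, adjusted p = 0.00387). EBP had 61.7, 62.4 and 63.5 CPM, against 72.1, 67.7 and 74.7 CPM (log2 -0.19 ± 0.05, adjusted p = 0.0359). The doses did not overlap in any of the 3 genes, which adds no support, since the genes were named because they were called. The call of EBP was lost in 5 of 6 fits that left out 1 library, all but that without low dose replicate 2. Against the vehicle at the high dose 1 gene was higher and 6 lower, where 3.08% and 2.32% of all tested genes were, a count that was 4 without vehicle replicate 3 and 4 without Schisandrae Fructus high dose replicate 2. At the medium dose 2 were called, where 4.34% were, and 6 without vehicle replicate 1, 1 without vehicle replicate 2, 1 without vehicle replicate 3, 1 without Schisandrae Fructus medium dose replicate 1 and 0 without Schisandrae Fructus medium dose replicate 3.

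Liriopis seu Ophiopogonis Tuber, of the same set, had 0 of 34 genes and 0% of all tested genes called between high and low dose by edgeR. There, 4 of the 34 had an unadjusted p under 0.05 and DESeq2 called 0. SCD had 1244, 1182 and 1261 CPM at the high dose, against 1319, 1294 and 1325 CPM at the low dose (log2 -0.09 ± 0.03, adjusted p = 1), and FDPS was at -0.10 ± 0.04. Against the vehicle 1 gene was higher, MVD, and 2 lower, FDFT1 and MSMO1, where 2.41% and 1.57% of all tested genes were, a count that was 5 without vehicle replicate 1, 1 without vehicle replicate 2, 1 without vehicle replicate 3, 1 without Liriopis seu Ophiopogonis Tuber high dose replicate 1 and 0 without Liriopis seu Ophiopogonis Tuber high dose replicate 3. At the medium dose 3 were called, where 4.7% were, and 8 without vehicle replicate 1, 1 without vehicle replicate 3 and 1 without Liriopis seu Ophiopogonis Tuber medium dose replicate 3. Schisandrae Fructus against Liriopis seu Ophiopogonis Tuber at the high dose gave 0 calls among the 34 by edgeR, where 0.38% of all tested genes were called, 7 had an unadjusted p under 0.05 and DESeq2 called 0. EBP was at -0.17 ± 0.05 (adjusted p = 0.0929) and ACSS2 at -0.27 ± 0.08 (adjusted p = 0.209). The difference in the high minus low change gave 0 by edgeR, where 0.0594% were called, with 3 of the 34 at an unadjusted p under 0.05 and 0 by DESeq2.

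In Zizyphi Semen 1 gene of 34 was called between high and low dose, where 0.202% of all tested genes were. SCD (ENSG00000099194, chr10:100347124-100364834, plus strand) had 1124, 1175 and 1141 CPM at the high dose, against 1352, 1314 and 1331 CPM at the low dose (log2 -0.22 ± 0.03, adjusted p = 0.000197). That call was kept without any 1 library, but lost with Yijin-tang low dose replicate 2 in the model. Longan Arillus, of the same set, had 2 genes higher and 2 lower, where 3.61% and 0.606% of all tested genes were. SCD had 1316, 1333 and 1305 CPM at its high dose, against 1171, 1202 and 1236 CPM at its low dose (log2 0.13 ± 0.03, adjusted p = 0.0101), so the doses stood in opposite order in the 2 extracts. ACACA had 516, 507 and 521 CPM at the high dose of Longan Arillus, against 405, 432 and 485 CPM at the low dose (log2 0.22 ± 0.05, adjusted p = 0.00249). MVD and ACSS2 were lower at the high dose, by 0.17 ± 0.04 and 0.26 ± 0.08. Without Longan Arillus low dose replicate 1, 0 of the 34 were called, and without high dose replicate 1, 2.

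Between the 2 extracts at the high dose 1 gene of 34 was called, where 0.0475% of all tested genes were. This was SCD, with 1124, 1175 and 1141 CPM in Zizyphi Semen, against 1316, 1333 and 1305 CPM in Longan Arillus (log2 -0.20 ± 0.03, adjusted p = 0.000546). The change between low and high dose differed for SCD by -0.35 ± 0.04 (adjusted p = 2.14e-05) and for ACACA by -0.33 ± 0.07 (adjusted p = 0.0101), 2 of 34, where 0.82% of all tested genes did. The call of ACACA was lost without Longan Arillus low dose replicate 1 (adjusted p = 0.077). Against the vehicle 0 of 34 were called by edgeR at the high dose (2.25% of all tested genes for Zizyphi Semen, 1.37% for Longan Arillus) or the medium dose (0.558% and 0.38%). At the high dose 11 and 10 had an unadjusted p under 0.05 and DESeq2 called 4 and 2, and at the medium dose these were 5 and 12, and 2 and 2. Without vehicle replicate 1, edgeR called 3 and 3 at the high dose.

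**Figure D4:**
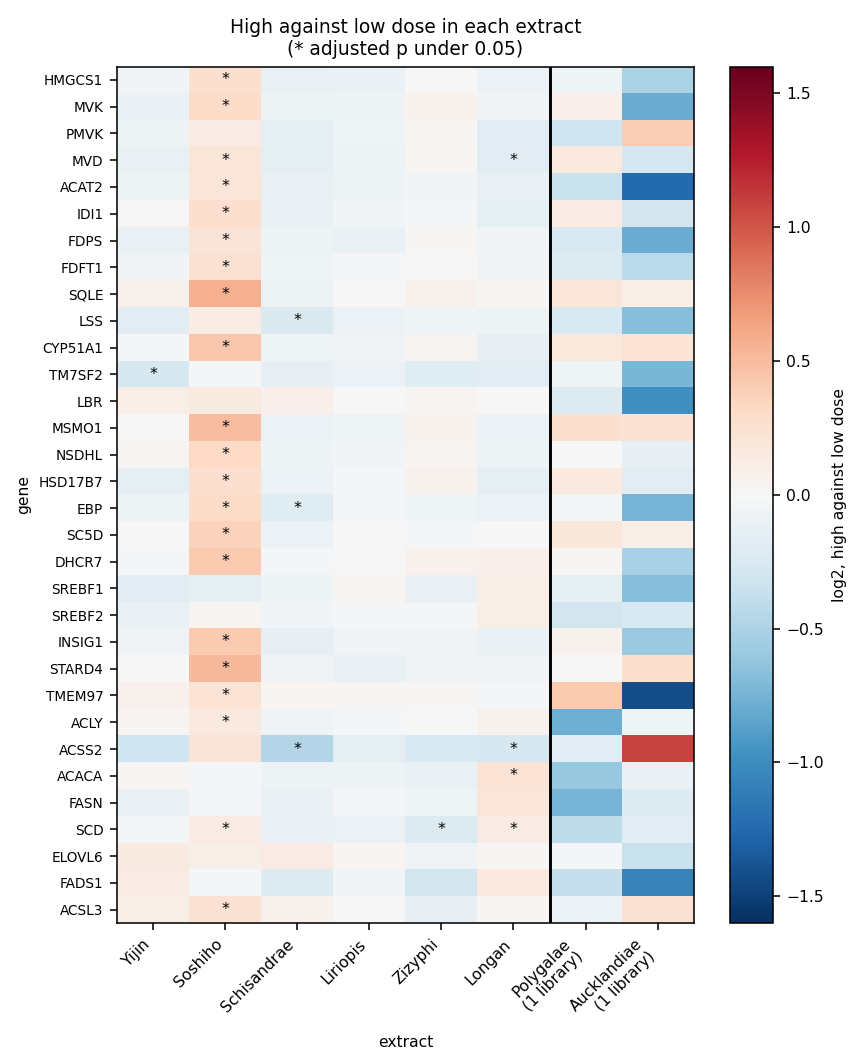
Log2 change of 32 genes between the high and the low dose in each of 8 extracts, red for higher and blue for lower, with a star for an adjusted p under 0.05. Soshiho-tang holds 21 of the stars, and the Polygalae Radix and Aucklandiae Radix columns are ratios of 1 library to 1 library with no test.

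Polygalae Radix and Aucklandiae Radix have no replicate check, so genes are counted where they are at least 1.5-fold from the mean of the vehicle libraries, over 32 of the genes with at least 1 CPM there. Each vehicle library set against the mean of the others gave 0 of 32 in either direction, where 1.47%, 0.386% and 0.492% of all genes were higher and 0.734%, 1.01% and 1.2% lower. At the high dose of Polygalae Radix 1 of 32 was lower and 0 higher, where 6.92% and 2.32% of all genes were, and against its low dose 3 were lower and 0 higher, where 6.73% and 2.41% were. ACLY had 225 CPM at the high dose, against 398, 355 and 349.8 CPM in the vehicle. FASN had 624 CPM, against 1025, 849 and 873 CPM, and ACACA had 339.8 CPM, against 523, 469 and 461 CPM. ACSS2, the other gene of fatty acid synthesis, had 16.1 CPM, against 16.9, 16.7 and 14.1 CPM, so it lay within the vehicle range. Against the vehicle, lower genes were a smaller share of the 32 (3.12%) than of all genes, and the 12 genes of the sterol branch had a median log2 ratio of 0.03. The sum of 10 HT29 markers in this library was 8410 CPM, against 12100 to 14100 CPM in the vehicle. It was the lowest of the libraries summed, which left out Yijin-tang low dose replicate 2. In the vehicle most of this sum was the keratin genes KRT8 and KRT18, with 6330 and 4010 CPM in replicate 1. The part of the lower sum in the result was not tested. ACAT2 was next lowest at 58.4 CPM, and TMEM97 (184.5 CPM), MVD (65.7 CPM), HSD17B7 (14.5 CPM) and MVK (40.7 CPM) had the largest ratios above the vehicle. At the medium dose 1 gene was higher, where 1.22% of all genes were, and this was ACSS2 at 24.05 CPM. The cut passes over smaller rises, as SQLE at the high dose of Soshiho-tang was 1.39-fold above the vehicle. The mean log2 CPM of the 32 genes at the medium dose was 6.888, against 6.715 ± 0.014 in the vehicle. At the low dose of Polygalae Radix it was 6.79, and at the medium and low doses of Aucklandiae Radix 6.841 and 6.788, all single libraries. The high dose libraries of Soshiho-tang stood at 6.922 and 6.988.

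Aucklandiae Radix at the high dose had 8 of 32 genes lower and 1 higher, where 18.2% and 14.5% of all genes were, and against its low dose 11 were lower and 1 higher, where 17.1% and 14.9% were. TMEM97 had 53.4 CPM at the high dose, against 144, 137 and 134 CPM in the vehicle, and ACAT2 had 32.35 CPM, against 71.7, 76.2 and 70.7 CPM. LBR, a nuclear envelope protein with sterol reductase activity, had 80.2 CPM, against 163.5, 163 and 140.3 CPM, and FADS1 had 1.995 CPM, against 5.37, 5.20 and 4.83 CPM. These 4 had the lowest ratios to the vehicle mean. ACSS2 had 36.7 CPM, against 16.9, 16.7 and 14.1 CPM, and was the gene that was higher. STARD4 (55.1 CPM), PMVK (25.4 CPM) and ACSL3 (236 CPM) had the next largest ratios. The library also had the highest sums of several marker lists among the libraries summed, which left out Yijin-tang low dose replicate 2. The sum was 54.1 CPM for 7 leukocyte markers, against 9.17 to 11.3 CPM in the vehicle. For 3 endothelium markers it was 9.21 CPM, against 0.951 to 1.57 CPM. For 5 fibroblast markers it was 3.31 CPM, against 1.11 to 2.24 CPM, and for 10 HT29 markers 15100 CPM, against 12100 to 14100 CPM. Single genes made up most of the leukocyte, endothelium and fibroblast sums, CD68 (52.2 CPM), PECAM1 (8.83 CPM) and COL1A1 (3.23 CPM). PTPRC, CD3E and HLA-DRA had 0 CPM. Of the HT29 markers, KRT8, KRT18, KRT20, CDH1 and CEACAM5 were above all vehicle libraries, with KRT8 at 8240 CPM. CDX1, CDX2, VIL1 and LGALS4 were below all of them, with VIL1 at 97.1 CPM, and EPCAM lay within their range. The part of these in the result was not tested.

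**Figure D5:**
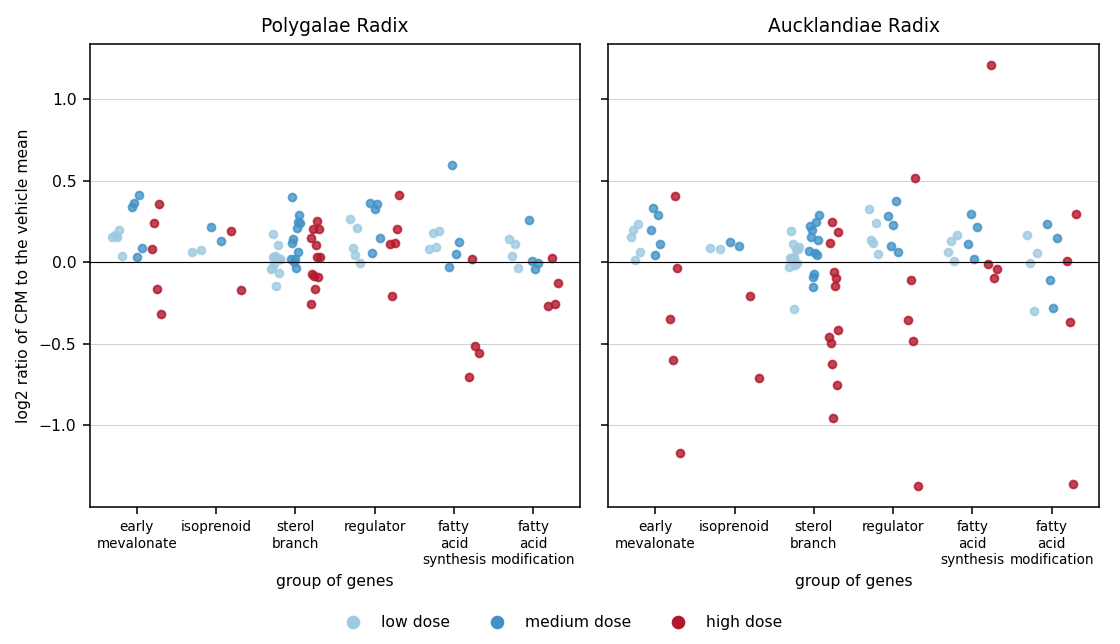
Log2 ratio of CPM to the vehicle mean for 32 genes by step of the pathway at low, medium and high dose of Polygalae Radix and Aucklandiae Radix, 1 point per gene. At the high dose ACLY stands at -0.706 in Polygalae Radix, and ACSS2 at 1.21 and TMEM97 at -1.37 in Aucklandiae Radix.

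Neighbouring lipid genes were counted in 4 lists for Soshiho-tang high against low dose, beside the 9.36% of all tested genes that rose and the 7.23% that fell. Of 10 genes that process SREBPs 2 rose, UFD1 (0.21 ± 0.05) and ERLIN1 (0.17 ± 0.05), both of protein clearance from the endoplasmic reticulum. Of 14 genes of sterol efflux, storage and LXR 3 rose and 2 fell. NPC1, which moves cholesterol out of lysosomes, had 64.6 and 61.7 CPM at the high dose, against 44.9 and 43.1 CPM at the low dose and 44.5, 42.9 and 40.4 CPM in the vehicle (log2 0.52 ± 0.06). ABCA1, which exports cholesterol from the cell, had 3.12 and 3.10 CPM, against 5.82 and 5.56 CPM at the low dose and 4.21, 4.415 and 3.545 CPM in the vehicle (log2 -0.87 ± 0.14). Both genes, named because they were called, differed between doses without overlap, NPC1 upward and ABCA1 downward.

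Of 19 tested genes of elongation, activation and NADPH supply 7 rose and 0 fell, with a median log2 fold change of 0.133. ME1, which makes NADPH, had 118 and 133 CPM at the high dose, against 81.1 and 87.2 CPM at the low dose (log2 0.57 ± 0.06). Of 18 genes of fatty acid oxidation 2 rose and 2 fell, with a median of -0.0873. In Zizyphi Semen at the high dose ABCG1, a sterol exporter, had 1.29, 1.22 and 1.31 CPM, against 2.96, 3.43 and 2.66 CPM in Longan Arillus (log2 -1.25 ± 0.18).

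Some counts are uncertain, since RSEM shares reads between alike genes. HSD17B7 has a copy, HSD17B7P2, at 12.2% of its mean level. MVK, ACAT2, FDPS, SREBF1, SREBF2 and TMEM97 overlap an expressed gene on the other strand, TM7SF2 overlaps VPS51 and FADS2 overlaps FEN1 on the same strand, and the strand setting of the counting is not given in the sources used here.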

How the data were processed

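Expected counts per gene and library were deposited by the authors, in 1 table with 60 library columns, with 0 other columns of samples. Per the submitters' processing notes, FastQC 0.11.9, Trim Galore 0.6.5, STAR 2.7.3a, RSEM 1.3.3 and the build GRCh38 were used, and the annotation is not given in the sources used here. RSEM splits reads that match several genes, and 89.9% of values lay within 1e-09 of a whole number. Here counts were rounded, kept by filterByExpr (16835 genes), scaled by TMM and fitted with the group as the only term by the quasi-likelihood method of edgeR 4.0.16 in R 4.3.3, over 53 libraries with a biological coefficient of variation of 5.07%. Benjamini-Hochberg adjusted p under 0.05 was called, in 30 comparisons. Errors are standard errors for fold changes and SD for levels. DESeq2 1.42.0 was an alternative. Levels are log2 CPM with a prior count of 2. Gene lengths and positions come from GENCODE 29. The steps were tested on simulated data. The members and lists were chosen with earlier results of these data known. Named genes were the 6 called members with the smallest p per comparison within a set, the 2 smallest where none was called, the 4 largest rises and falls for single libraries and, from each neighbouring list, at most 3 called genes. Lack of overlap in genes named by their p is therefore no further support for them. Alternatives were other normalization, no filter, the replicate block, other library sets and leaving out each library. The positive control named in the series description is not analysed here.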

Additional observations from a re-analysis of the deposited data

Results flagged for a closer look

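The change from low to high dose differed between Yijin-tang and Soshiho-tang for 15 genes by the test of the difference itself (edgeR quasi-likelihood, over 16835 genes). Each value is the Yijin-tang minus the Soshiho-tang change on the log2 scale. The sterol branch genes among them were SQLE at -0.502, DHCR7 at -0.438, CYP51A1 at -0.461, EBP at -0.371, FDFT1 at -0.297, SC5D at -0.368, MSMO1 at -0.484 and LSS at -0.303. The mevalonate and isoprenoid genes were MVK at -0.404, FDPS at -0.325, MVD at -0.316 and HMGCS1 at -0.302. The regulators and carriers were INSIG1 at -0.476 and STARD4 at -0.522, and in fatty acid synthesis ACSS2 at -0.521. Standard errors ran from 0.054 to 0.13 and adjusted p from 1.14e-08 to 0.0122. For SQLE the change was 0.0675 with Yijin-tang, against 0.569 with Soshiho-tang, and for ACSS2 it was -0.314, against 0.207. Leaving out 1 library ended the calls of MSMO1 (Soshiho-tang high dose replicate 3, adjusted p = 0.209, low dose replicate 2 and Yijin-tang low dose replicate 3) and HMGCS1 (Soshiho-tang high dose replicate 3, adjusted p = 0.0889, low dose replicate 3 and Yijin-tang low dose replicate 1). The calls of ACSS2, LSS and MVD were lost without Soshiho-tang low dose replicate 2 or Yijin-tang low dose replicate 3, and that of STARD4 without the first of these.

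The same test between Zizyphi Semen and Longan Arillus gave SCD at -0.348 ± 0.045 (adjusted p = 2.14e-05), with changes of -0.218 in Zizyphi Semen and 0.13 in Longan Arillus. ACACA gave -0.331 ± 0.066 (adjusted p = 0.0101), with changes of -0.109 in Zizyphi Semen and 0.222 in Longan Arillus.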

How the results depend on the processing

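Counts of called genes among the 34 moved by over 1.5 times in the following cases, each given as the count under the alternative with the reported count in brackets, and the cause was not tested. With all 54 libraries of replicated groups, Yijin-tang low dose replicate 2 included, the count was 14 (1) for Yijin-tang high against low, 12 (21) for Soshiho-tang high against low, 1 (3) for Schisandrae Fructus high against low, 0 (1) for Zizyphi Semen high against low, 0 (4) for Longan Arillus high against low, 2 (7) for Yijin-tang high against vehicle, 13 (23) for Soshiho-tang high against vehicle, 2 (7) for Schisandrae Fructus high against vehicle, 0 (3) for Liriopis seu Ophiopogonis Tuber high against vehicle, 0 (2) for Yijin-tang medium against vehicle, 0 (2) for Schisandrae Fructus medium against vehicle, 0 (3) for Liriopis seu Ophiopogonis Tuber medium against vehicle, 6 (0) for Yijin-tang low against vehicle, 0 (1) for Soshiho-tang low against vehicle, 0 (1) for Schisandrae Fructus low against vehicle, 0 (2) for Liriopis seu Ophiopogonis Tuber low against vehicle, 0 (1) for Longan Arillus low against vehicle, 15 (23) for Yijin-tang against Soshiho-tang at high dose, 0 (1) for Zizyphi Semen against Longan Arillus at high dose and 0 (2) for Zizyphi Semen against Longan Arillus in high minus low. Without both libraries that stand apart, the count was 3 (0) for Zizyphi Semen high against vehicle, 5 (2) for Schisandrae Fructus medium against vehicle, 1 (0) for Zizyphi Semen medium against vehicle, 2 (0) for Yijin-tang low against vehicle and 4 (2) for Liriopis seu Ophiopogonis Tuber low against vehicle. With RLE normalization, the count was 1 (2) for Yijin-tang medium against vehicle and 1 (0) for Zizyphi Semen medium against vehicle. With no filter on low counts, the count was 0 (1) for Yijin-tang high against low, 2 (4) for Longan Arillus high against low, 1 (0) for Longan Arillus high against vehicle, 1 (2) for Yijin-tang medium against vehicle, 1 (0) for Soshiho-tang medium against vehicle, 5 (3) for Liriopis seu Ophiopogonis Tuber medium against vehicle, 2 (0) for Longan Arillus medium against vehicle, 3 (0) for Yijin-tang low against vehicle, 0 (1) for Soshiho-tang low against vehicle, 3 (1) for Schisandrae Fructus low against vehicle, 2 (0) for Zizyphi Semen low against vehicle and 2 (1) for Longan Arillus low against vehicle. With DESeq2, the count was 5 (3) for Liriopis seu Ophiopogonis Tuber high against vehicle, 4 (0) for Zizyphi Semen high against vehicle, 2 (0) for Longan Arillus high against vehicle, 1 (0) for Soshiho-tang medium against vehicle, 5 (2) for Schisandrae Fructus medium against vehicle, 2 (0) for Zizyphi Semen medium against vehicle, 2 (0) for Longan Arillus medium against vehicle, 2 (0) for Yijin-tang low against vehicle, 3 (1) for Soshiho-tang low against vehicle, 3 (1) for Schisandrae Fructus low against vehicle, 5 (2) for Liriopis seu Ophiopogonis Tuber low against vehicle, 1 (0) for Zizyphi Semen low against vehicle, 4 (1) for Longan Arillus low against vehicle and 2 (1) for Zizyphi Semen against Longan Arillus at high dose. With the replicate block, the count was 0 (1) for Yijin-tang high against low, 1 (0) for Zizyphi Semen high against vehicle, 5 (2) for Schisandrae Fructus medium against vehicle, 1 (0) for Zizyphi Semen medium against vehicle, 2 (0) for Yijin-tang low against vehicle, 2 (1) for Soshiho-tang low against vehicle, 2 (1) for Schisandrae Fructus low against vehicle and 1 (0) for Zizyphi Semen low against vehicle. With a fit of the compared groups alone, the count was 0 (1) for Yijin-tang high against low, 2 (21) for Soshiho-tang high against low, 0 (4) for Longan Arillus high against low, 1 (7) for Yijin-tang high against vehicle, 5 (23) for Soshiho-tang high against vehicle, 1 (7) for Schisandrae Fructus high against vehicle, 0 (3) for Liriopis seu Ophiopogonis Tuber high against vehicle, 0 (2) for Yijin-tang medium against vehicle, 0 (2) for Schisandrae Fructus medium against vehicle, 0 (3) for Liriopis seu Ophiopogonis Tuber medium against vehicle, 0 (1) for Soshiho-tang low against vehicle, 0 (1) for Schisandrae Fructus low against vehicle, 0 (2) for Liriopis seu Ophiopogonis Tuber low against vehicle, 0 (1) for Longan Arillus low against vehicle, 12 (23) for Yijin-tang against Soshiho-tang at high dose, 1 (15) for Yijin-tang against Soshiho-tang in high minus low and 1 (2) for Zizyphi Semen against Longan Arillus in high minus low. 

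Leaving out 1 library at a time, the count ran from 0 to 0 for Yijin-tang high against low, from 15 to 20 for Soshiho-tang high against low, from 2 to 3 for Schisandrae Fructus high against low, from 0 to 0 for Liriopis seu Ophiopogonis Tuber high against low, from 1 to 1 for Zizyphi Semen high against low, from 0 to 5 for Longan Arillus high against low, from 2 to 9 for Yijin-tang high against vehicle, from 16 to 25 for Soshiho-tang high against vehicle, from 4 to 8 for Schisandrae Fructus high against vehicle, from 0 to 5 for Liriopis seu Ophiopogonis Tuber high against vehicle, from 0 to 3 for Zizyphi Semen high against vehicle, from 0 to 3 for Longan Arillus high against vehicle, from 0 to 4 for Yijin-tang medium against vehicle, from 0 to 2 for Soshiho-tang medium against vehicle, from 0 to 6 for Schisandrae Fructus medium against vehicle, from 1 to 8 for Liriopis seu Ophiopogonis Tuber medium against vehicle, from 0 to 2 for Zizyphi Semen medium against vehicle, from 0 to 4 for Longan Arillus medium against vehicle, from 0 to 3 for Yijin-tang low against vehicle, from 0 to 8 for Soshiho-tang low against vehicle, from 0 to 8 for Schisandrae Fructus low against vehicle, from 1 to 11 for Liriopis seu Ophiopogonis Tuber low against vehicle, from 0 to 4 for Zizyphi Semen low against vehicle, from 0 to 3 for Longan Arillus low against vehicle, from 19 to 24 for Yijin-tang against Soshiho-tang at high dose, from 0 to 0 for Schisandrae Fructus against Liriopis seu Ophiopogonis Tuber at high dose, from 1 to 1 for Zizyphi Semen against Longan Arillus at high dose, from 10 to 20 for Yijin-tang against Soshiho-tang in high minus low, from 0 to 0 for Schisandrae Fructus against Liriopis seu Ophiopogonis Tuber in high minus low and from 1 to 2 for Zizyphi Semen against Longan Arillus in high minus low. The high minus low difference of the mean log2 CPM of the 34 genes ran from -0.0636 to -0.0165 for Yijin-tang, from 0.147 to 0.342 for Soshiho-tang, from -0.0777 to -0.0644 for Schisandrae Fructus, from -0.0645 to -0.0407 for Liriopis seu Ophiopogonis Tuber, from -0.0422 to -0.0118 for Zizyphi Semen and from -0.0637 to -0.0134 for Longan Arillus. These 34 include ELOVL5 and FADS2, which were near 0. Replicates 2 and 3 of the high dose of Soshiho-tang stood at 6.374 and 6.569 with 34 genes, and at 6.922 and 6.988 with 32. For Schisandrae Fructus the difference moved by more than the spread, to -0.0476 with a prior count of 0.5, -0.09 with plain totals and -0.0941 without ELOVL5 and FADS2, where the last was chosen after seeing the data. Of 597 alternatives of named genes, 516 kept their call, 81 lost it and 0 reversed. Replicate numbers did not pair the libraries (0 of 27 comparisons, correlations of deviations from -0.141 to 0.223), and the replicate block changed no count of calls by over 1.5 times except those above. With 1 or 2 libraries in a group the spread is taken from the other groups.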
